A study of Mus musculus with 6 samples.

Results

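The 33 genes described here are markers and functional genes of astrocytes, measured by bulk RNA-Seq in the forebrain of *Slc13a4*+/- and wild-type mice at postnatal day 20 (P20). They were chosen by gene symbol and not by a threshold on their values, but with earlier results of these data known. Each deposited transcript was assigned to a gene of the GENCODE M21 annotation of the mouse genome build GRCm38, its estimated read count was summed per gene, and all 33 symbols were found among 35523 genes. They cover the uptake of transmitter, the handling of water and ions, metallothioneins, the cytoskeleton, the carriage of lipid, receptors and regulators of transcription.

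The comparison addresses what the loss of 1 copy of *Slc13a4*, a sulfate transporter gene, does to transcript levels in the forebrain at this age. The heterozygous group held 3 mice (Nas2Del_Het_1024, Nas2Del_Het_1025 and Nas2Del_Het_1027, of the genotype labelled Nas2Del +/- Het) and the wild-type group held 3 littermate controls (Nas2Del_WT_1016, Nas2Del_WT_1018 and Nas2Del_WT_1026). Values of single mice are given in this order throughout. All 6 mice were C57BL/6, were offspring of heterozygous males and wild-type females, and gave the whole forebrain as 1 library each. The deletion was carried in the germ line and was not limited to a cell type, and the sources used here give neither the sex nor the litter of a mouse.

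Astrocytes are glial cells that take up glutamate and GABA released at synapses, turn glutamate into glutamine, and clear potassium and water from around active neurons. Their endfeet cover blood vessels and the surface of the brain, and they supply neurons with lipid carried on apolipoproteins. After injury astrocytes commonly become reactive, a state best known for more of the intermediate filament protein GFAP. In bulk tissue fewer astrocytes and less RNA per astrocyte cannot be told apart.

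The labels and the libraries were checked first. *Slc13a4* (chr6:35267957-35308131, minus strand) was at 5.60, 6.57 and 5.41 counts per 1000000 (CPM) in heterozygous mice and at 10.4, 9.36 and 8.23 CPM in wild-type mice. The heterozygous mean was 37.3% below the wild-type mean, and the log2 fold change (*Slc13a4*+/- minus wild-type) was -0.67 with a standard error (SE) of 0.11. The edgeR adjusted p was 0.50, and the DESeq2 adjusted p was 0.0024. Library totals ran from 60340337 to 80410582 estimated counts. *Ddx3y*, a Y-linked gene, was at 105 CPM in wild-type mouse Nas2Del_WT_1016 and at no more than 0.033 CPM in the other 5 mice. By this gene mouse Nas2Del_WT_1016 was the only male, so the groups were not balanced for sex. The part of sex in the results was not tested, but values without mouse Nas2Del_WT_1016 are given below beside the genes most in view. Annotated retained-intron transcripts held 2.017% to 2.438% of the counts of heterozygous mice and 1.796% to 2.004% of those of wild-type mice, without overlap. With these transcripts left out in edgeR, all 33 genes kept the direction of their log2 fold change and none was called. The part of this difference in the results was not tested further. *Pcp2* and *Gabra6*, which mark cerebellar Purkinje and granule cells, had at most 48.0 and 56.1 counts in any mouse.

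All 33 genes passed the filter on low counts, with between 832 and 333950 counts in a mouse. Per transcript length, on the scale of transcripts per 1000000 (TPM) averaged over the 6 mice, *Apoe* was the highest at 3300 ± 178 (SD, n = 6) and *Sox9* the lowest at 7.53 ± 0.40. *Glul* followed *Apoe* at 1197 ± 26.2, then *Slc1a2* at 954 ± 40.7 and *Aldoc* at 920 ± 50.4. The levels of *Slc1a2* and *Aldoc* overlapped between mice, as did those of *Clu* (781), *Ndrg2* (710.1) and *Mt1* (694) in turn. *Mt3* (553) and *Slc1a3* (382) stood apart from both of their neighbours in every mouse. *Gfap*, the usual marker of reactive astrocytes, was near the middle of the order at 112 ± 7.44 TPM and overlapped with *Mlc1* above it and *Acsbg1* below it.

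**Figure D1:**
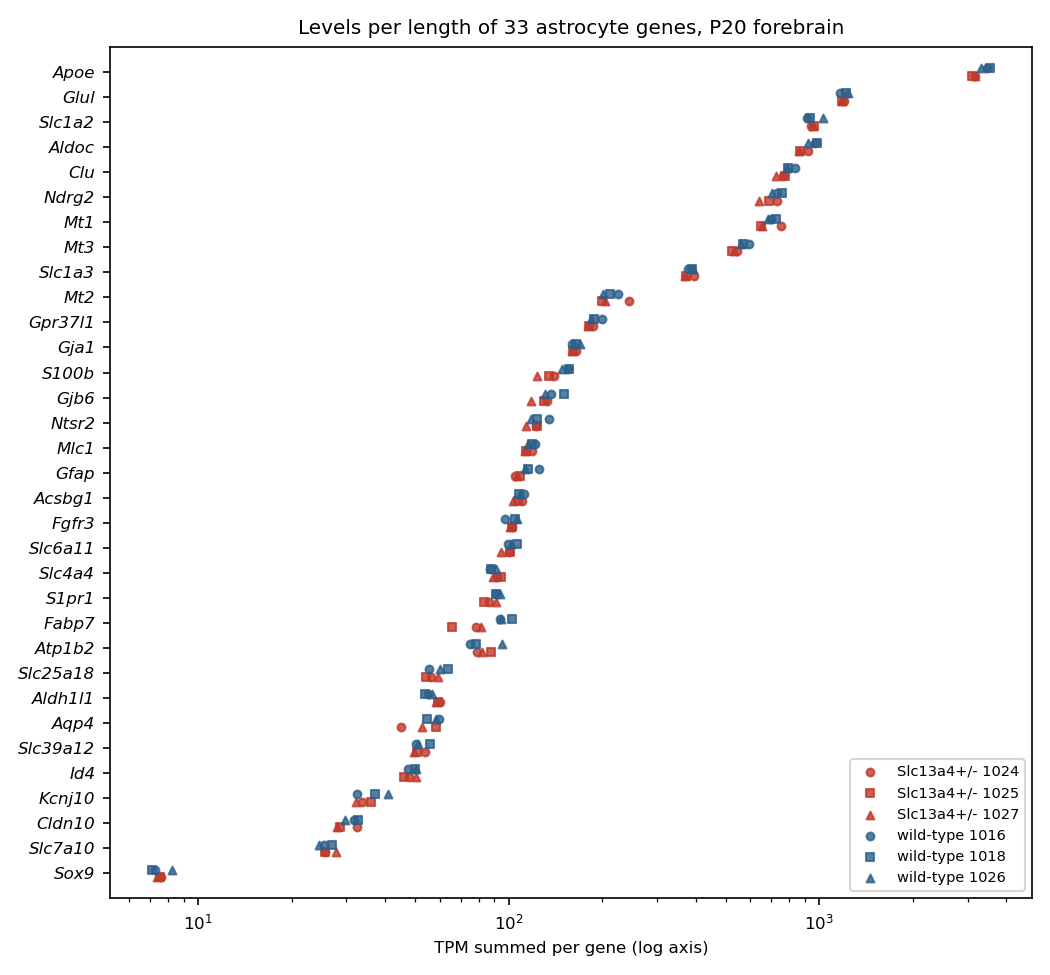
TPM summed per gene on a log axis for the 33 astrocyte genes, in order of the mean, with 1 point per mouse (blue wild-type, red *Slc13a4*+/-). *Apoe* lies above all others at about 3300 TPM and *Sox9* below all others at 7.53 TPM.

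Most of these genes had slightly lower values in *Slc13a4*+/- mice. The log2 fold change was below 0 for 30 of 33 genes, against 52.2% of all 17096 genes tested, and its median was -0.07, against -0.00 over all genes. The exceptions were *Aldh1l1* (0.07), *Mt2* (0.00) and *Slc4a4* (0.00). The clearest differences were those of *Fabp7*, *S100b*, *Gfap* and *Apoe*, in which all 3 heterozygous mice lay below all 3 wild-type mice.

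None of the 33 genes was called by edgeR at an adjusted p under 0.1, at which 0.00585% of all genes were called. At an unadjusted p under 0.05, 9 of 33 were lower (4.17% of all genes) and 0 were higher (4.98% of all genes). All heterozygous values lay below all wild-type values in 10 of 33 genes (7.7% of all genes) and above them in 1 (7.26% of all genes). DESeq2 with average transcript length offsets called 3 of 33 as lower (0.187% of the 17659 genes with an adjusted p), namely *Fabp7*, *S100b* and *Apoe*. Without wild-type mouse Nas2Del_WT_1026, edgeR called these 3 and *Gfap* as lower (0.525% of all genes). DESeq2 then called 8 (2.68% of the 11013 genes with an adjusted p in that fit), which also held *Mt3*, *Clu*, *Aldoc* and *Gjb6*. Without wild-type mouse Nas2Del_WT_1016 or Nas2Del_WT_1018, neither tool called any of the 33.

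**Figure D2:**
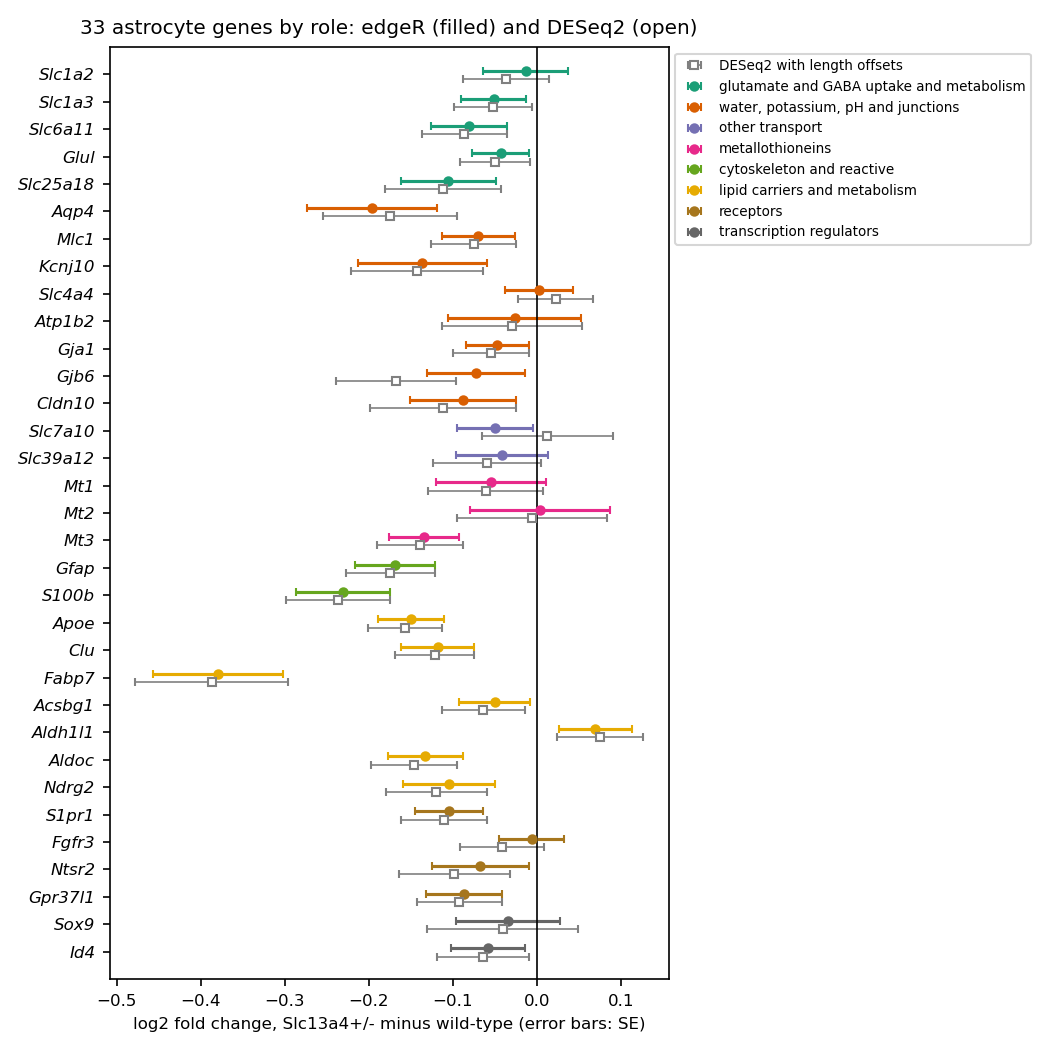
Log2 fold change (*Slc13a4*+/- minus wild-type) with its SE for each of the 33 astrocyte genes, coloured by role, from edgeR (filled points) and from DESeq2 with length offsets (open points). In edgeR 30 of 33 points lie below 0, and *Fabp7* lies furthest from it at -0.38.

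The genes of transmitter uptake and metabolism had small log2 fold changes, and none was lower at an unadjusted p under 0.05. *Slc1a2* (chr2:102658659-102790784, plus strand) encodes GLT-1, the main glutamate transporter of the forebrain. It was at 3877, 3938 and 3886 CPM in heterozygous mice and at 3694, 3835 and 4282 CPM in wild-type mice. The groups overlapped, with the lowest and the highest values both in wild-type mice. The log2 fold change of -0.01 (SE 0.05) turned to 0.05 without mouse Nas2Del_WT_1026. *Slc1a3* encodes GLAST, the other astrocyte glutamate transporter, and was at 726, 681 and 681 CPM against 709.7, 725 and 729.5 CPM (log2 fold change -0.05, SE 0.04). *Glul*, the glutamine synthetase that turns the captured glutamate into glutamine, was at 1522, 1469 and 1462 CPM against 1486, 1551 and 1552 CPM (-0.04, SE 0.03). Both overlapped between the groups. *Slc6a11*, the GABA transporter GAT-3, did not overlap, with 178 to 192 CPM in heterozygous mice and 193 to 206 CPM in wild-type mice (log2 fold change -0.08, SE 0.05). *Slc25a18*, a mitochondrial glutamate carrier, ran from 45.5 to 49.3 CPM against 47.4 to 54.7 CPM and overlapped.

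*Slc1a2* is transcribed into forms with different coding starts and ends, and their counts were compared separately. Of the transcripts with at least 1% of the gene's counts, *Slc1a2-202* held 95.0%, *Slc1a2-203* held 3.42% and *Slc1a2-201* held 1.23%. The forms *Slc1a2-202* and *Slc1a2-203* share their last 1702 coding bases and differ at the start. *Slc1a2-203* and *Slc1a2-201* share their first 1638 coding bases and differ at the end, the place that separates the GLT-1a and GLT-1b proteins. These stretches are shown because reads across them are among those that tell the forms apart. They were taken from the GENCODE M21 transcript sequences and lie on the plus strand of GRCm38, with capitals for the stretch outside the run of coding bases that the compared pair shares and lower case for the 12 bases of that run next to it. The coding end of *Slc1a2-203* is also that of *Slc1a2-202*, and its coding start is also that of *Slc1a2-201*.
Slc1a2-202 coding start (chr2:102659285-102659301): ATGGCATCAACAGAGGGtgccaacaatat
Slc1a2-203 coding start (chr2:102706476-102706483): ATGGTCAGtgccaacaatat
Slc1a2-203 coding end (chr2:102781463-102781534): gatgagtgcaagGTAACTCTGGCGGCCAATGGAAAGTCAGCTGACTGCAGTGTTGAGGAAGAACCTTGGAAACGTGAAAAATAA
Slc1a2-201 coding end (chr2:102777656-102777694): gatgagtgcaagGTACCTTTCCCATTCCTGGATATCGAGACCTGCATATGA

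The main form, *Slc1a2-202*, was at 3696, 3654 and 3675 CPM in heterozygous mice and at 3554, 3658 and 4140 CPM in wild-type mice, with overlap. *Slc1a2-203*, with the coding start of *Slc1a2-201* and the coding end of *Slc1a2-202*, was at 137, 125 and 116 CPM against 155, 139 and 138 CPM. With CPM scaled over transcripts, its 3 heterozygous values lay below all wild-type values, the nearest pair being less than 1 CPM apart. By library totals alone the groups overlapped. Mouse Nas2Del_Het_1024 had 10606 of 78070813 estimated counts on this form, and mouse Nas2Del_WT_1026 had 10576 of 80410582. The log2 fold change of *Slc1a2-203* was -0.19 (SE 0.08, edgeR adjusted p 0.67). *Slc1a2-201*, with the GLT-1b end, was at 45.5, 42.2 and 48.9 CPM against 43.4, 53.1 and 56.8 CPM (-0.17, SE 0.11). As a share of the gene's counts, *Slc1a2-203* was at 3.26% ± 0.26 in heterozygous and 3.63% ± 0.48 in wild-type mice (SD, n = 3 each, two-sided exact permutation p 0.4, with 0.1 the smallest that 3 against 3 can give). The shares of *Slc1a2-202* (p 0.4) and *Slc1a2-201* (p 0.3) did not pass that permutation test either, which a design of this size could not do. The minor form *Slc1a2-204*, with 0.14% of the counts, was estimated at 433, 637 and 1040.1 counts in heterozygous mice and at 0, 0 and 314 in wild-type mice. It was named after its values were seen, and Salmon divides reads shared with the main form by a model, so an estimate of 0 is not a measured absence.

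Of the 8 genes of water, potassium, pH and cell contacts, 7 had a log2 fold change below 0 (52.2% of all genes tested). Of these, 1 (*Aqp4*) was lower at an unadjusted p under 0.05 (4.17% of all genes), and none of the 8 had separate groups. *Aqp4*, the water channel of the endfeet, was at 93.8, 118 and 105 CPM in heterozygous mice and at 127, 117 and 120.2 CPM in wild-type mice. Mouse Nas2Del_Het_1025 lay inside the wild-type range and the other 2 heterozygous mice lay below it. The log2 fold change of -0.20 (SE 0.08, edgeR adjusted p 0.53) became -0.11 without mouse Nas2Del_Het_1024 and -0.28 without mouse Nas2Del_Het_1025. *Gja1*, which encodes the gap junction protein connexin 43, was at 231, 223 and 221 CPM against 227, 232 and 238 CPM (-0.05, SE 0.04). *Gjb6*, connexin 30, ran from 69.9 to 75.8 CPM against 70.9 to 82.2 CPM, with a log2 fold change of -0.07 in edgeR and -0.17 in DESeq2 with length offsets. *Kcnj10*, the potassium channel Kir4.1, had -0.14 (SE 0.08). *Mlc1*, a membrane protein of the endfeet, had -0.07, *Cldn10*, a claudin, -0.09, *Atp1b2*, a sodium pump subunit, -0.03, and *Slc4a4*, a bicarbonate transporter, 0.00. The SE of these 4 lay between 0.04 and 0.08.

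Of the remaining transporters, *Slc7a10*, which carries small neutral amino acids such as serine, ran from 19.9 to 20.2 CPM in heterozygous mice and from 20.2 to 21.9 CPM in wild-type mice. These groups did not overlap, but their nearest values differed by far less than the spread, and the log2 fold change of -0.05 (SE 0.04) turned to 0.01 with length offsets. *Slc39a12*, a zinc importer, overlapped between 58.6 and 64.6 CPM against 60.3 to 67.1 CPM.

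The metallothioneins are short proteins that bind zinc and copper through cysteines, and *Mt1*, *Mt2* and *Mt3* lie next to each other on chromosome 8. *Mt1* and *Mt2* are induced by metals and by glucocorticoids in many tissues, while *Mt3* is expressed mainly in the brain. Their coding sequences are shown because the genes are close copies, so reads must be told apart by the bases in which they differ. The sequences are from GENCODE M21, joined over the exons within the given stretch of GRCm38 on the plus strand, with the cysteine codons (20 in each) in capitals.
Mt1-201 (chr8:94179311-94180193, 61 codons): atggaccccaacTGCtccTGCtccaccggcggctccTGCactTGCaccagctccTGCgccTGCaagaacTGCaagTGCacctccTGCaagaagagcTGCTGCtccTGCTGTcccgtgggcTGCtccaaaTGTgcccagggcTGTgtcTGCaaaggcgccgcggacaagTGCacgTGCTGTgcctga
Mt2-201 (chr8:94172848-94173427, 61 codons): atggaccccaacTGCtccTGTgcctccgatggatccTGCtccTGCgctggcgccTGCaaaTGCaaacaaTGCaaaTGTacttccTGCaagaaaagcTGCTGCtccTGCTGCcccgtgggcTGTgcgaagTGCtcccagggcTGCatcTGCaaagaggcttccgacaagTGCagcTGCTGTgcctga
Mt3-201 (chr8:94152800-94154010, 68 codons): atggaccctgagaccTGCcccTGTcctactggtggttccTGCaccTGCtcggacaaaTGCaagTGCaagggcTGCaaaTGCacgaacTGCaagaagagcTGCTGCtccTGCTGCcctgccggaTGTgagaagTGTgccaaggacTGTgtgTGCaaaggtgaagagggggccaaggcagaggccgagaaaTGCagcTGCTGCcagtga

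The coding sequences of *Mt1* and *Mt2* were identical at 79.6% of 186 aligned positions, and the longest run of identical bases between any pair was 27, between *Mt1* and *Mt3*. The paired-end reads were longer than any such run, but only these coding sequences were compared. How well reads were assigned to each gene was not tested. *Mt3* (chr8:94152607-94154146) was at 99.4, 94.9 and 94.8 CPM in heterozygous mice and at 110.0, 105 and 102 CPM in wild-type mice. All heterozygous values lay below all wild-type values (log2 fold change -0.13, SE 0.04, edgeR adjusted p 0.50, DESeq2 adjusted p 0.39). *Mt1* was at 145, 124 and 123 CPM against 136, 140.4 and 131 CPM. *Mt2* was at 42.3, 34.2 and 34.5 CPM against 39.0, 36.9 and 34.8 CPM. In both, heterozygous mouse Nas2Del_Het_1024 was the highest of all 6 mice and the other 2 heterozygous mice were the lowest. The log2 fold changes were -0.05 (SE 0.07) for *Mt1* and 0.00 (SE 0.08) for *Mt2*, which became -0.10 without mouse Nas2Del_Het_1024.

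The cytoskeletal and calcium-binding markers, *Gfap* and *S100b*, were lower in all 3 heterozygous mice. *Gfap* (chr11:102887336-102900912, minus strand) was at 125, 129 and 125 CPM in heterozygous mice and at 152, 140.1 and 135 CPM in wild-type mice. The heterozygous mice lay within 5 CPM of each other and below the lowest wild-type mouse. The mean was 11.0% lower, with a log2 fold change of -0.17 (SE 0.05, edgeR adjusted p 0.50, DESeq2 adjusted p 0.16). It was -0.20 without mouse Nas2Del_WT_1026 (edgeR adjusted p 0.092) and -0.12 without mouse Nas2Del_WT_1016. *S100b* (chr10:76253853-76261159, plus strand), which encodes a small calcium-binding protein, was at 89.6, 85.9 and 78.0 CPM against 101, 102 and 95.0 CPM. Its groups did not overlap and its mean was 14.8% lower (log2 fold change -0.23, SE 0.06, edgeR adjusted p 0.50, DESeq2 adjusted p 0.044). It was -0.21 without mouse Nas2Del_WT_1016 (DESeq2 adjusted p 0.44) and -0.17 without mouse Nas2Del_Het_1027 (DESeq2 adjusted p 0.46).

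*Gfap* is spliced into forms with different ends. *Gfap-201* held 94.3% of its counts and encodes the common GFAP alpha protein, while *Gfap-202* held 5.67% and ends in the exon of the delta form, which in mice is known from neurogenic zones and from astrocytes at the brain surface. Of the 2 forms the alpha form had separate groups. *Gfap-201* was at 119, 119 and 117 CPM in heterozygous mice and at 145, 133 and 131 CPM in wild-type mice, without overlap. EdgeR gave it -0.21 (SE 0.05, adjusted p 0.67), and DESeq2 called it (adjusted p 0.0084). Because transcripts were scaled separately from genes, these values cannot be set directly against the -0.17 of the whole gene. *Gfap-202* was at 7.39, 7.50 and 7.31 CPM against 9.42, 7.52 and 6.77 CPM, with the heterozygous mice inside the wild-type range and a log2 fold change of -0.09 (SE 0.14) that became 0.05 without mouse Nas2Del_WT_1016. The share of *Gfap-202* in the gene's counts was 5.90% ± 0.04 in heterozygous and 5.46% ± 0.60 in wild-type mice (SD, n = 3 each, two-sided exact permutation p 0.4), so a different response of the 2 forms was not shown. Over all 125 tested transcripts of the 33 genes, edgeR called 0 (0% of all transcripts, smallest adjusted p 0.665), with 16 lower (3.39% of all transcripts) and 3 higher (4.02%) at an unadjusted p under 0.05. DESeq2 called 6 as lower (0.451% of the 64236 transcripts with an adjusted p), namely *S100b-201*, *Clu-201*, *Apoe-202*, *Apoe-209*, *Fabp7-201* and *Gfap-201*. Errors per transcript are too small, because the uncertainty of dividing shared reads was not carried into these tests. The transcript fits were also scaled separately from the gene fits. *S100b* and *Id4* each have all counts on 1 transcript, yet their log2 fold changes were lower there. *S100b* had -0.23 in the edgeR gene fit, -0.26 in the edgeR transcript fit and -0.28 in the DESeq2 transcript fit. *Id4* had -0.06, -0.09 and -0.11. The part of this shift in the transcripts called was not tested.

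**Figure D3:**
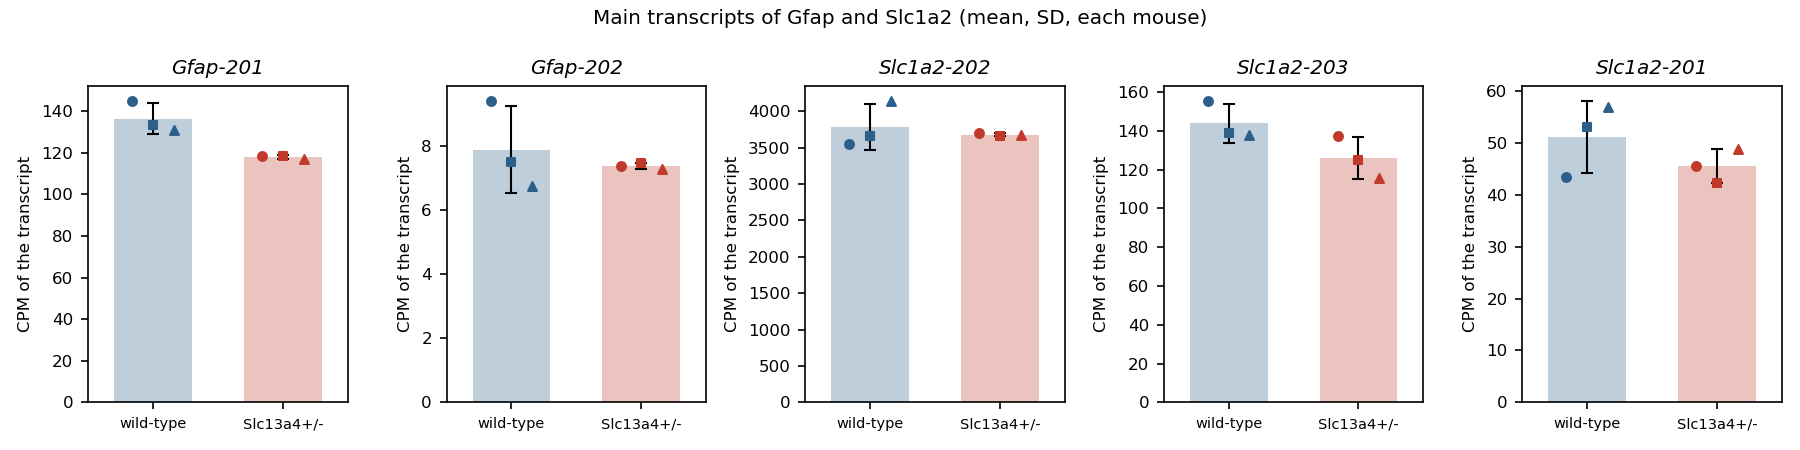
CPM of the main transcripts of *Gfap* and *Slc1a2* (those with at least 1% of the gene's counts), with bars for the group mean, error bars for the SD, and 1 point per mouse (circle Nas2Del_WT_1016 or Nas2Del_Het_1024, square Nas2Del_WT_1018 or Nas2Del_Het_1025, triangle Nas2Del_WT_1026 or Nas2Del_Het_1027). *Gfap-201* is lower in all 3 *Slc13a4*+/- mice, while *Gfap-202* and *Slc1a2-202* overlap between the groups.

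The genes of lipid carriage and metabolism held the largest difference, that of *Fabp7*. *Fabp7* (chr10:57784881-57788450, plus strand) encodes the brain fatty acid binding protein of radial glia and young astrocytes. It was at 24.8, 20.5 and 25.2 CPM in heterozygous mice and at 29.7, 32.5 and 29.6 CPM in wild-type mice. The highest heterozygous mouse lay more than 4 CPM below the lowest wild-type mouse, and the mean was 23.2% lower. The log2 fold change of -0.38 (SE 0.08) had an edgeR adjusted p of 0.50 and a DESeq2 adjusted p of 0.018. Its smallest size over the mice left out was -0.29, without mouse Nas2Del_Het_1025, and DESeq2 gave adjusted p values of 0.11 without mouse Nas2Del_WT_1016 and 0.20 without mouse Nas2Del_WT_1018.

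*Apoe* (chr7:19696109-19699188, minus strand), the main lipid carrier made by astrocytes, was at 1234, 1192 and 1216 CPM in heterozygous mice and at 1371, 1388 and 1281 CPM in wild-type mice. The groups did not overlap, and the mean was 9.88% lower. EdgeR gave a log2 fold change of -0.15 (SE 0.04) and an adjusted p of 0.50, and the DESeq2 adjusted p was 0.087. DESeq2 no longer called it when mouse Nas2Del_WT_1016 (adjusted p 0.51), Nas2Del_WT_1018 (0.39), Nas2Del_Het_1024 (0.10), Nas2Del_Het_1025 (0.56) or Nas2Del_Het_1027 (0.53) was left out. Microglia also make *Apoe*, and 10 of 10 microglial markers lay below 0 in the same comparison (52.2% of all genes tested). The part of either cell type in the value of *Apoe* was not tested.

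*Clu*, which encodes clusterin, another secreted apolipoprotein, was at 595, 598 and 557 CPM in heterozygous mice and at 656, 628 and 615 CPM in wild-type mice (log2 fold change -0.12, SE 0.04, edgeR adjusted p 0.52). *Aldoc*, the brain form of the glycolytic enzyme aldolase, was at 742, 693 and 685 CPM against 781, 798 and 746 CPM (-0.13, SE 0.04, edgeR adjusted p 0.50). Neither overlapped, although the highest heterozygous and the lowest wild-type mouse were close for *Aldoc*. *Ndrg2*, a cytosolic protein often used as an astrocyte marker, ran from 455 to 525 CPM against 511 to 538 CPM (-0.10, SE 0.05), and *Acsbg1*, an acyl-CoA synthetase, from 132 to 143 CPM against 140.2 to 147 CPM (-0.05, SE 0.04). *Aldh1l1*, a folate enzyme and a widely used astrocyte marker, was the single gene with all heterozygous values above all wild-type values. It ran from 69.1 to 73.5 CPM against 64.7 to 69.1 CPM, with a log2 fold change of 0.07 (SE 0.04, edgeR adjusted p 0.64). The lowest heterozygous value (69.092 CPM) and the highest wild-type value (69.058 CPM) were almost equal.

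**Figure D4:**
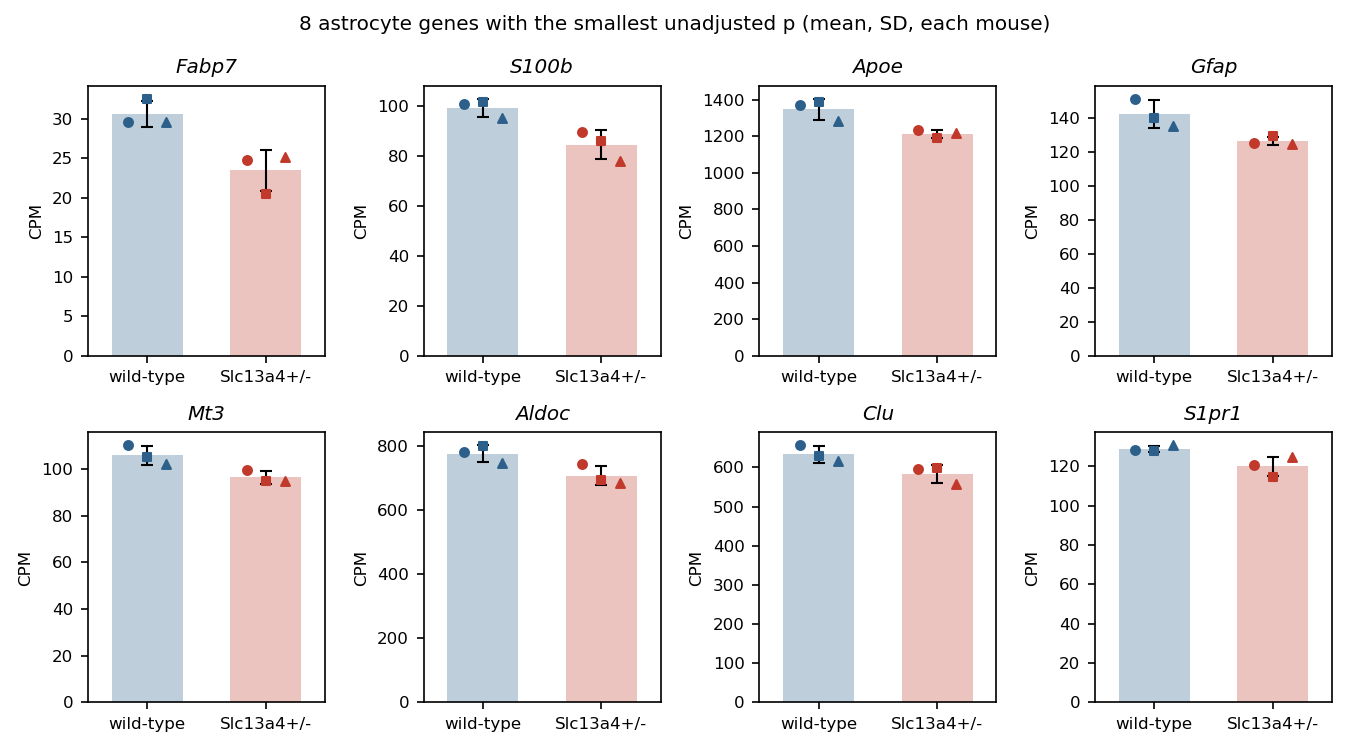
CPM of the 8 astrocyte genes with the smallest unadjusted edgeR p, with bars for the group mean, error bars for the SD, and 1 point per mouse (circle Nas2Del_WT_1016 or Nas2Del_Het_1024, square Nas2Del_WT_1018 or Nas2Del_Het_1025, triangle Nas2Del_WT_1026 or Nas2Del_Het_1027). In all 8 the 3 *Slc13a4*+/- mice lie below the 3 wild-type mice, by the most in *Fabp7* (23.2% lower mean) and by the least in *S1pr1* (7.02%).

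The receptors and the regulators of transcription had differences of similar small size. *S1pr1*, a receptor for sphingosine 1-phosphate found on astrocytes and on endothelium, was at 120.4, 115 and 125 CPM in heterozygous mice and at 128, 128 and 131 CPM in wild-type mice, without overlap (log2 fold change -0.10, SE 0.04, edgeR adjusted p 0.52). *Fgfr3*, a receptor for fibroblast growth factors, had -0.01, *Ntsr2*, a neurotensin receptor, -0.07, and *Gpr37l1*, a receptor of mature astrocytes, -0.09. Their SE lay between 0.04 and 0.06 and their groups overlapped. *Sox9* and *Id4*, which act early in the astrocyte lineage, had -0.03 (SE 0.06) and -0.06 (SE 0.04), and both overlapped.

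The 33 genes did not order the mice in the same way within each group. The mean deviation of their log2 CPM from the mean of all mice was -0.00 in heterozygous mouse Nas2Del_Het_1024, -0.05 in Nas2Del_Het_1025 and -0.08 in Nas2Del_Het_1027, and 0.04, 0.06 and 0.03 in wild-type mice Nas2Del_WT_1016, Nas2Del_WT_1018 and Nas2Del_WT_1026. Mouse Nas2Del_Het_1027 was the lowest of the 6 for 19 of the genes and mouse Nas2Del_Het_1025 for 8, while mouse Nas2Del_Het_1024 was the highest for 4. Of the 33 genes, 9 were lower at an unadjusted p under 0.05 in all mice, where 4.17% of all genes tested were. Without mouse Nas2Del_Het_1027 the number was 5, beside 2.05% of all genes tested, and without mouse Nas2Del_WT_1026 it was 13, beside 8.6%. Shorter members had the lower median. The 10 members with an average transcript length under 1500 bases had a median log2 fold change of -0.10 and the 23 longer ones -0.05. Over all genes tested these medians were -0.03 and 0.00, and the part of length in the members' values was not tested. Animal numbers Nas2Del_WT_1016 and Nas2Del_WT_1018 were set apart from the other 4 as a covariate, so that the comparison rests on a single wild-type mouse, Nas2Del_WT_1026, taken to vary like the others. With it *Fabp7* had -0.33, *S100b* -0.17, *Gfap* -0.10 and *Apoe* -0.08 (lowest edgeR adjusted p 0.23).

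Astrocyte genes that are not among the 33 also had a median below 0. Of 39 tested, 32 were below 0 (52.2% of all genes tested), with a median of -0.05. At an unadjusted p under 0.05, 5 were lower (4.17% of all genes) and 0 higher (4.98% of all genes). DESeq2 called 0, where 0.187% of genes with an adjusted p were called as lower and 0.3% as higher. The same shares stand beside the counts of each list below. The lowest p values were those of *Maob*, which breaks down monoamines (-0.16, SE 0.05), *Slco1c1*, a thyroid hormone transporter (-0.10, SE 0.04), and *Slc6a9*, a glycine transporter (-0.10, SE 0.04), with edgeR adjusted p values from 0.50 to 0.54. Of 12 regulators of astrocyte transcription, 11 were below 0 (median -0.06), with *Emx2*, a homeobox gene, lower at an unadjusted p under 0.05 (-0.26, SE 0.09).

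None of the tested genes known to increase in reactive astrocytes was higher at an unadjusted p under 0.05. Of 12 that respond in all kinds of reactive astrocyte, 9 were below 0 (52.2% of all genes tested), with a median of -0.11. At an unadjusted p under 0.05, 3 were lower (4.17% of all genes) and 0 higher (4.98% of all genes). *Hspb1*, a small heat shock protein, was at 8.21, 8.13 and 7.27 CPM in heterozygous mice and at 11.7, 10.1 and 9.78 CPM in wild-type mice (-0.42, SE 0.09, DESeq2 adjusted p 0.044). *Vim*, the intermediate filament protein vimentin, had -0.16 (SE 0.04) and *Cp*, the copper-carrying ceruloplasmin, -0.14 (SE 0.05), both without overlap. Of 11 tested genes that respond after inflammation 2 were lower, *Srgn* (-0.26) and *Gbp2* (-0.34), and 0 higher (median -0.08), and of 10 that respond after ischaemia 0 were lower and 0 higher (median -0.05). DESeq2 called none of the genes of these last 2 lists.

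Genes of metal and glucocorticoid response, which share regulators with *Mt1* and *Mt2*, lay on both sides of 0. Of 13 metal response genes 2 were lower (4.17% of all genes tested) and 2 higher (4.98%) at an unadjusted p under 0.05 (median -0.03). *Slc30a1*, the zinc exporter of the plasma membrane, was at 52.1, 48.8 and 49.9 CPM in heterozygous mice and at 45.6, 43.8 and 48.0 CPM in wild-type mice (0.13, SE 0.05), *Slc30a10*, a manganese exporter, had 0.36 (SE 0.13), and *Txnrd1*, thioredoxin reductase, had -0.10 (SE 0.03). Of 17 glucocorticoid response genes 2 were lower and 3 higher (median 0.02), with *Hif3a* at 3.75, 3.98 and 3.38 CPM against 2.76, 2.43 and 2.58 CPM (0.51, SE 0.10). EdgeR gave each of these 4 genes an adjusted p between 0.50 and 0.52, and DESeq2 called none.

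Markers of several other cell types had medians below 0 as the 33 astrocyte genes did, and the part of cell composition in the results was not tested. The median log2 fold change was -0.13 for 12 oligodendrocyte lineage genes (3 lower at an unadjusted p under 0.05), -0.14 for 10 microglial genes (5 lower), -0.10 for 12 endothelial and mural genes (4 lower) and -0.07 for 10 progenitor and immature neuron genes (2 lower). It was -0.20 for 10 choroid plexus genes (4 lower), a list that holds *Slc13a4* itself, and -0.18 for 8 ependymal genes (1 lower). In contrast, 12 neuronal genes had a median of -0.02, with 0 lower and 0 higher, and 8 meningeal genes had 0.01 with 1 higher. Over all genes tested, 4.17% were lower and 4.98% higher at that p. No marker of these lists was at 0 in all mice. *Nes*, the intermediate filament protein nestin of progenitors and of some vascular cells, was at 13.6, 15.2 and 15.4 CPM against 18.4, 19.1 and 19.0 CPM (-0.35, SE 0.06, DESeq2 adjusted p 0.024).

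Region markers and genes that respond to tissue handling were compared as well. The 6 olfactory bulb genes had a median of -0.44 (2 lower) and summed to 80.3 to 82.2 CPM in heterozygous mice and 86.1 to 107 CPM in wild-type mice. Their mean log2 deviation from all mice overlapped, at -0.31, -0.13 and 0.07 in heterozygous mice and -0.18, 0.36 and 0.20 in wild-type mice. Only 1 of the 6 had all heterozygous values below all wild-type values (7.7% of all genes tested). The 8 genes of thalamus and hypothalamus had -0.02 (1 lower) and the 4 tested cerebellar genes 0.05. Of 10 heat shock genes 6 were lower at an unadjusted p under 0.05 (4.17% of all genes tested), with a median of -0.15. Their summed level was 5663 to 5772 CPM against 5849 to 6264 CPM. The 5 blood genes had -0.15, with 0 lower. For comparison, the 33 astrocyte genes summed to 11519 to 11928 CPM in heterozygous mice and 12026 to 12487 CPM in wild-type mice. How far the olfactory bulb, heat shock and blood values bear on the astrocyte genes was not tested.

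**Figure D5:**
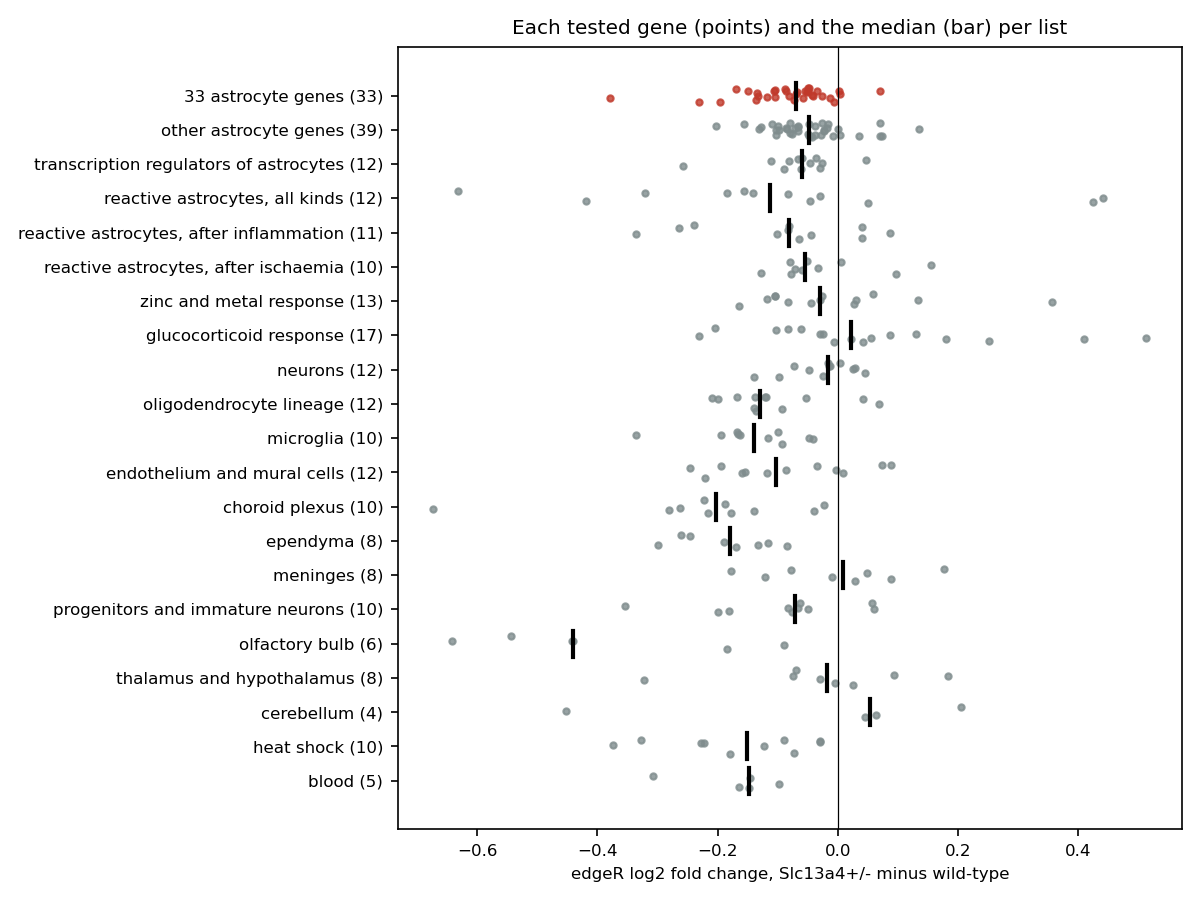
Log2 fold change (*Slc13a4*+/- minus wild-type, edgeR) of each tested gene in the 33 astrocyte genes (red) and in 20 other lists (grey), with a bar at the median and the number tested in brackets. The astrocyte genes lie between -0.38 and 0.07 around a median of -0.07, above the medians of choroid plexus (-0.20), ependyma (-0.18), microglia (-0.14) and oligodendrocyte lineage (-0.13).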

How the data were processed

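Total RNA of the whole P20 forebrain was depleted of rRNA by the authors, made into stranded libraries and sequenced as paired-end reads. The authors ran Salmon (1.2.0, with its options to check mappings and correct for GC bias) and deposited, for each of 117135 transcripts, an estimated count, TPM and effective length. The deposited TPM values sum to 1000000 in each mouse, and the authors tested genes with DESeq2 after import by tximeta. The transcript set and build behind that run were not given in the sources used here.

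Identifiers of 115973 transcripts matched GENCODE M21 (GRCm38). The 1162 others, at most 0.645% of a mouse's counts, were left out. Estimated counts were summed per gene and rounded, and totals were 60340337 to 80410582 per mouse. The parts of counting and of the spread between mice in the error were not separated. EdgeR 4.0.16 (R 4.3.3; quasi-likelihood test, default filter, TMM) tested 17096 genes and 54721 transcripts, with Benjamini-Hochberg adjustment and a threshold of 0.1, that of the study. DESeq2 1.42.0 (Wald test, with average transcript length offsets inferred from the import, 17659 adjusted p values) was the alternative, and for transcripts it ran without offsets. CPM are scaled by TMM, separately for genes and for transcripts. Levels between genes use TPM. Shares were compared by exact permutation tests. Python 3.11.15 joined the files. The code was tested on simulated data.

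The members and all lists were chosen with earlier results of these data known. Values in every mouse are given for genes called by edgeR or DESeq2, the 8 with the smallest edgeR p, and *Gfap*, *Slc1a2*, *Slc1a3*, *Aqp4*, *Gja1*, *Glul*, *Apoe*, *Mt1*, *Mt2* and *Mt3*. Other members are given by range or log2 fold change. From each of 20 other lists up to 3 genes with the smallest p could be named, and 235 of their 236 genes were found; *Agt* is not analysed here. Alternatives were other scalings, filters, tools, retained-intron transcripts left out, the run of animal numbers as a covariate, and each mouse left out.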

Additional observations from a re-analysis of the deposited data

How the results depend on the processing

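Over all 6 mice the astrocyte genes called were 0 in edgeR, 3 in DESeq2 with or without length offsets and 2 in edgeR with no filter on low counts (*Fabp7* and *S100b*). The genes called in the other lists were 0 in edgeR, 6 in DESeq2 with or without offsets, 8 with no filter and 5 with the covariate. Leaving out each mouse in turn gave 0 to 4 astrocyte genes called in edgeR and 0 to 8 in DESeq2, 5 to 13 and 7 to 14 lower at an unadjusted p under 0.05, a median of -0.10 to -0.044 and -0.11 to -0.06, and 0 to 10 and 1 to 35 genes of the other lists called. The highest counts came without mouse Nas2Del_WT_1026, except the 14, which came without mouse Nas2Del_Het_1024. Shares over all genes shifted with the mouse left out as well. In edgeR, genes lower by the unadjusted p made up 2.05% of those tested without mouse Nas2Del_Het_1027 and 8.6% without mouse Nas2Del_WT_1026. Without the latter mouse, 0.525% of genes tested were called as lower in edgeR, and 2.68% of those with an adjusted p in DESeq2. The DESeq2 range of 7 to 14 and the 2 genes called with no filter have no such share beside them. DESeq2 called 1 *Gfap* or *Slc1a2* transcript and edgeR 0. On TPM in place of counts, the heterozygous minus wild-type share was 1.07 percentage points for *Slc1a2-202*, -1.54 for *Slc1a2-203* and -0.37 for *Slc1a2-201* (exact permutation p 0.4, 0.4 and 0.3).

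No astrocyte gene called over all 6 mice by either tool changed direction. Of the others, length offsets turned *Slc7a10* to 0.014 in edgeR and 0.012 in DESeq2, and *Mt2* to -0.0041 and -0.0057. The covariate turned *Slc4a4* to -0.047, *Gjb6* to 0.035 and *Ntsr2* to 0.028, and library totals alone turned *Fgfr3* to 0.0041. Over the mice left out in turn, the edgeR log2 fold change ran from -0.052 to 0.052 for *Slc1a2*, from -0.011 to 0.029 for *Slc4a4*, from -0.088 to 0.070 for *Atp1b2*, from -0.081 to 0.0058 for *Slc39a12*, from -0.10 to 0.057 for *Mt2*, from -0.024 to 0.011 for *Fgfr3*, from -0.075 to 0.031 for *Sox9*, from -0.20 to 0.052 for *Gfap-202* and from -0.084 to 0.025 for *Slc1a2-202*. In DESeq2, leaving out mouse Nas2Del_WT_1026 turned *Slc1a2* to 0.014, *Atp1b2* to 0.077, *Sox9* to 0.026 and *Slc7a10* to -0.027. *Mt2*, already below 0 in DESeq2 over all 6 mice, was -0.047 without Nas2Del_WT_1026, -0.0052 without Nas2Del_WT_1018 and -0.11 without Nas2Del_Het_1024. In DESeq2 *Slc7a10* was 0.011, 0.053, 0.024 and 0.036 without Nas2Del_WT_1016, Nas2Del_WT_1018, Nas2Del_Het_1024 and Nas2Del_Het_1025. The cause was not tested. Leaving out mice in DESeq2 was chosen after seeing the data. No paired analysis was possible because the labels give the groups no shared replicate numbers.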
